A study of Drosophila melanogaster with 4 samples.

Results

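Chromosome arm 2L of Drosophila melanogaster carried stretches rich in acetylation of histone H3 at lysine 27 (H3K27ac) and long stretches with none listed. The stretch described here runs from the telomeric end of the arm sequence to 20.5 Mb. Members are the regions that the authors listed as enriched on 2L with a start at or before that position, on FlyBase release 5. There were 859 such regions of 5501 in ChIP replicate 1, 836 of 5426 in ChIP replicate 2, and 977 of 6270 in a further list for the replicate set. Membership rests on position alone, but the rule that set this part named 2L as the large arm with the lowest density. The last member lay at 2L:20486213-20488228 in replicate 1 and at 2L:20485843-20488884 in replicate 2, with scores of 0.56 and 0.63. The first region past the bound lay at 2L:20637126-20639194 and 2L:20637105-20639129, with scores of 0.58 and 0.49.

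The study used larvae of the wild-type strain Oregon-R (Oregon-R-modENCODE) in the 3rd instar, with 2 H3K27ac ChIP samples and 2 input samples. The antibody was a rabbit polyclonal raised against a peptide with acetylated lysine 27. No region list of the inputs was used here. The labels name no tissue and do not state if separate collections of larvae were used, so SDs between the replicates may be technical. No read counts accompany the lists, and the depth behind each region is unknown.

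H3K27ac is written by the acetyltransferase CBP (Nejire in Drosophila) and its relatives, and it marks promoters and enhancers in use. The same lysine can instead carry the trimethylation laid down by Polycomb complexes, so acetylation and that form of silencing exclude each other on a histone tail. By the usual orientation of the map, 2L begins near the telomere and runs toward the centromere, where gene-poor heterochromatin lies. Larvae of this stage hold imaginal discs, brain, gut, muscle, fat body and salivary glands. If whole larvae were used, a listed region may stem from any of these, and the number of cells that carry the mark cannot be told apart from the amount per cell.

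Enriched regions covered 19.1% ± 0.712 of the studied stretch of 2L, or 3.91 ± 0.146 Mb (SD, n = 2). Replicate 1 covered 19.6% and replicate 2 covered 18.6%. Region density was 41.9 per Mb in replicate 1 and 40.8 per Mb in replicate 2, a mean of 41.3 ± 0.793 (SD, n = 2). The median region was 3015 bp wide in replicate 1 and 3041 bp in replicate 2, and the middle 50% ran from 2081 ± 21.4 to 5315 ± 28.3 bp. The authors scored each region, on a log2 scale (the base was inferred from the values) whose zero is unknown. The median score on 2L was 0.80 in each replicate, the lowest was 0.13 and 0.18, and the highest was 2.53 and 2.42. Score and width went together, and across the regions of a library their Spearman rho was 0.84 ± 0.003 (SD, n = 2).

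The regions were unevenly spaced. The median gap between neighbours was 5374 ± 514 bp, while the middle 50% of gaps ran from 1705 ± 205 to 17564 ± 556 bp (SD, n = 2). Gaps under 2 kb made up 28.2% ± 1.13 of all gaps. Gaps of 20 kb or more made up 22.6% ± 0.351 of the gaps and held 64.6% ± 0.305 of the bases of the stretch. If regions under 2 kb apart are taken as a run, 443 regions of replicate 1 and 458 of replicate 2 stood alone, and 58 and 56 runs held 3 or more. The most members in a run was 5 in both replicates, and such a run lay near the telomeric end, at 2L:65425-94348 in replicate 1 and 2L:65536-94262 in replicate 2. Regions filled 91.9% of it in each replicate.

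Coverage was higher in the telomeric part of the stretch than in the part nearer the centromere. Over 4 sections of 5.125 Mb each, regions covered 22.7% ± 0.911, 23.8% ± 0.861, 15.7% ± 0.746 and 14.1% ± 0.330 of the bases, from the telomeric end inward (SD, n = 2). Density over the same sections was 49.4 ± 0.552, 45.3 ± 0.276, 37.5 ± 0.828 and 33.3 ± 1.52 regions per Mb. Sections 1 and 2 each lay above sections 3 and 4 in both replicates, for coverage and for density. The median score was highest in section 2, at 0.95 ± 0.04, beside 0.77 ± 0.01, 0.71 ± 0.04 and 0.73 ± 0.001 in sections 1, 3 and 4. The median width was 3600 ± 5.66 bp in section 2, beside 2850 ± 1.41, 2798 ± 70.7 and 2832 ± 112 bp in the others.

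Over 41 windows of 500 kb, the covered share had a Spearman rho with position of -0.42 in replicate 1, -0.39 in replicate 2 and -0.40 for their mean. The windows share their libraries and neighbours resemble each other, with a Spearman rho of 0.29 between adjacent windows, so the trend is a description. It was a difference between the earlier and later windows more than a steady slope. Within the first 20 windows rho was 0.15, and within the last 21 it was -0.16, a division chosen after the data were seen. The number of regions per window had a rho with position of -0.35, and the median score per window had one of -0.35. Windows with more coverage held more regions (rho 0.79) and regions of higher median score (rho 0.49).

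**Figure D1:**
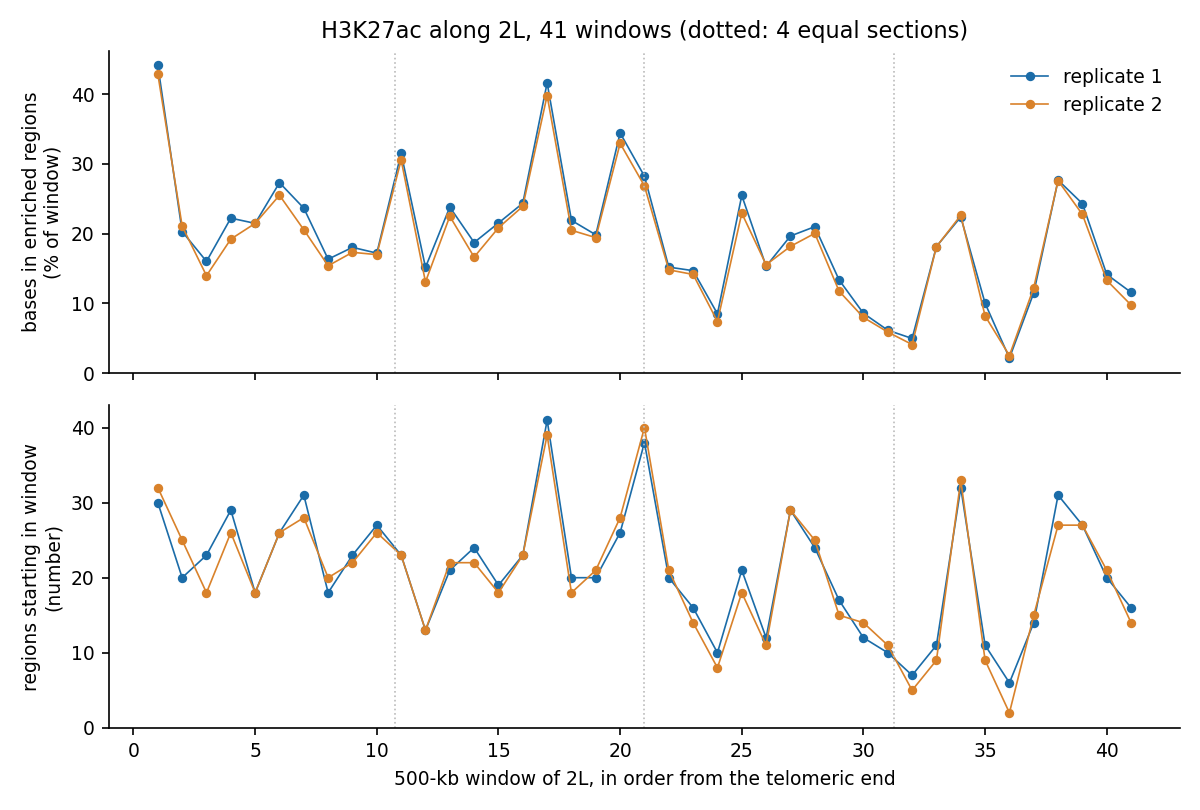
Share of bases in enriched regions (top, %) and number of regions starting in the window (bottom) for each 500-kb window of 2L, in order from the telomeric end, with replicate 1 in blue, replicate 2 in orange and dotted lines at the section borders. Replicate lines run together, from 43.5% in the first window to 2.35% in window 36 (means of both replicates).

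The most covered window was the first, from 1 to 500000, with 44.1% in replicate 1 and 42.9% in replicate 2. It held 30 and 32 regions. The window from 8000001 to 8500000 followed, with 41.6% and 39.8% and with 41 and 39 regions. The windows from 9500001 to 10000000 (34.4% and 32.9%) and from 5000001 to 5500000 (31.5% and 30.6%) came next. The next, from 18500001 to 19000000, lay deep in the sparse part of the stretch and reached 27.7% and 27.6%. Among windows of 100 kb, the most covered ran from 400001 to 500000, where 66.4% of bases were listed in replicate 1 and 64.9% in replicate 2.

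The least covered window ran from 17500001 to 18000000, with 2.17% in replicate 1 and 2.53% in replicate 2. Replicate 1 listed 6 regions there and replicate 2 listed 2. At 2L:17582323-17590453 replicate 2 gave 1 region of 8.13 kb, where replicate 1 gave 3 regions of 1.85, 2.85 and 1.64 kb. The windows from 15500001 to 16000000 (4.97% and 4.11%) and from 15000001 to 15500000 (6.16% and 5.90%) adjoin each other. The window from 14500001 to 15000000 (8.57% and 7.98%) precedes them, so that 3 windows in a row stayed under 10%. The window from 11500001 to 12000000 had 8.51% and 7.40%. In all, 6 of 41 windows were under 10% in the mean of both replicates and 7 were over 25%. Replicate 1 covered more than replicate 2 in 35 of 41 windows, and the SD between replicates had a median of 0.665 and a maximum of 2.19 percentage points. The gap between the most and least covered windows, 43.5% and 2.35%, was many times that SD. These windows were picked as the extremes of the same values, so the gap describes the range only.

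Empty stretches, with no base in a region of either replicate, made up a large part of the arm. Stretches of at least 100 kb numbered 37 and held 5.91 Mb, which is 28.8% of the studied bases. Their median length was 139 kb, and 6 of them were at least 200 kb long. Of the 37, 23 began in the second 50% of the stretch. Stretches of at least 50 kb numbered 87 and held 46.3% of the bases. Within the 4 sections, those of at least 50 kb held 39.2%, 36.5%, 51.6% and 57.9% of the bases, from the telomeric end inward. The part of these bases to which reads can be mapped is not known here, so an empty stretch is a place with no listed region, not a place shown to lack the mark.

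The longest empty stretch lay at 2L:16928825-17376361 and measured 448 kb. It was bordered toward the telomere by narrow regions, 1336 bp wide with a score of 0.50 in replicate 1, and 2099 bp wide with 0.54 in replicate 2. On the other side lay regions of 9536 and 7001 bp, with scores of 0.75 and 0.83. The replicate set placed 2 small regions inside it, the wider of 1695 bp and the higher-scoring at 0.46. The next, at 2L:15915093-16249211, measured 334 kb and held no region of the replicate set wholly inside. It ended at a region of 10.5 kb in replicate 1 and 10.6 kb in replicate 2, which scored 1.90 and 1.81.

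The third, at 2L:11529107-11801748, measured 273 kb and lay between higher-scoring regions than the first, with 1.41 and 1.34 at its telomeric side and 2.10 and 2.22 at the other. The fourth, at 2L:20093020-20310705, measured 218 kb, and the fifth, at 2L:17750430-17963002, measured 213 kb. The sixth, at 2L:11314745-11515440, measured 201 kb and was parted from the third by the regions between 11515441 and 11529106. The remaining 4 of the 10 longest lay at 2L:4611156-4799262 (188 kb), 2L:5548868-5723986 (175 kb), 2L:12179243-12346501 (167 kb) and 2L:1241177-1408069 (167 kb).

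A weak region in 1 replicate could decide how long an empty stretch was. Replicate 2 alone had its longest gap at 2L:17590454-18113913, of 523 kb, and replicate 1 listed 2 regions wholly inside it, of 1413 bp with a score of 0.47 and of 1490 bp with a score of 0.15. The median score of replicate 1 on 2L was 0.80. In replicate 1 the longest gap was the 448-kb stretch above, and in the replicate set it was 334 kb. Of the 37 stretches of at least 100 kb, 24 held no region of the replicate set wholly inside, and the set listed 18 regions within the other 13. Regions of the set took up 0.547% of the bases of the 37 stretches.

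Regions at the borders of these 37 stretches had medians near those of the others. The 70 bordering regions of replicate 1 had a median score of 0.75 and a median width of 2795 bp, beside 0.80 and 3069 bp for the other 789. The 68 bordering regions of replicate 2 had 0.79 and 2935 bp, beside 0.80 and 3048 bp for the other 768. Scores at the borders ran from 0.13 to 2.10 in replicate 1 and from 0.24 to 2.22 in replicate 2. Regions in the 6 windows under 10% covered had a median score of 0.70 in replicate 1 and 0.65 in replicate 2. In the 7 windows over 25% it was 0.95 and 0.86.

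Wide regions were few and held a large share of the listed bases. Regions of at least 10 kb numbered 80 of 859 in replicate 1 (9.31%) and 65 of 836 in replicate 2 (7.78%), and held 31.6% and 27.9% of the listed bases of 2L. Over all sequences 10.0% of the regions of replicate 1 and 8.61% of replicate 2 were as wide, so the shares on 2L were near the background. All 80 wide regions of replicate 1 overlapped a region of replicate 2, and for 65 of them a region of at least 10 kb. All 65 of replicate 2 overlapped replicate 1, and 64 of them a region of at least 10 kb. Of the 80, 20 touched 2 or more regions of replicate 2, and of the 65, 5 touched 2 or more of replicate 1. Contact at an edge counts in this.

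Stretches inside a region of both replicates (both-replicate stretches) numbered 813, with a median of 2885 bp, and covered 3.57 Mb. Of these, 65 were at least 10 kb wide and 13 at least 20 kb. The 65 held 29.0% of the bases that both replicates listed. Their scores, as the mean of both replicates, had a median of 1.45 and ran from 0.72 to 2.38, while the narrower stretches had a median of 0.81 and a maximum of 2.42. Over the 4 sections they numbered 21, 24, 10 and 10 from the telomeric end inward, which is 8.64%, 10.6%, 5.65% and 5.99% of the both-replicate stretches there. The starts of neighbouring wide stretches were a median of 183 kb apart and at most 1853 kb. The first 500-kb window held 6 of the 65, and 8 of 41 windows held none.

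The widest stretch lay at 2L:12455123-12499831, where replicate 1 listed 44.8 kb with a score of 1.75. Replicate 2 listed 63.9 kb there as 1 region, with a score of 1.64, and the replicate set listed 64.7 kb. Replicate 1 listed a further region of 16.8 kb after a break of 2363 bp, with a score of 1.60. Another region followed within 1 kb in each replicate, of 18.5 kb in replicate 1 and 17.6 kb in replicate 2. The second, at 2L:473747-499738, spanned 32.7 kb in replicate 1 and 26.0 kb in replicate 2, scoring 1.97 and 1.92.

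The next stretches had nearly equal widths in both replicates. The third, at 2L:418478-444261, was listed at 25.9 ± 0.012 kb and the fourth, at 2L:9683438-9709124, at 25.7 ± 0.078 kb (SD, n = 2). The fifth, at 2L:16264633-16289599, was listed at 25.01 ± 0.013 kb with scores of 1.94 and 1.93. It lay inward of the 334-kb empty stretch and was, of the 10 widest, the nearest to the centromere. The sixth, at 2L:11042986-11067711, was listed at 24.9 ± 0.176 kb. The remaining 4 lay at 2L:5968419-5990540 (24.0 ± 2.60 kb), 2L:2159139-2180720 (22.0 ± 0.538 kb), 2L:838248-859478 (22.3 ± 1.35 kb) and 2L:8081406-8102189 (22.8 ± 2.75 kb). Scores of the 10 ran from 1.26 to 2.45 in replicate 1 and from 1.33 to 2.28 in replicate 2, each above the upper quartile of 2L, 1.16 ± 0.03.

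**Figure D2:**
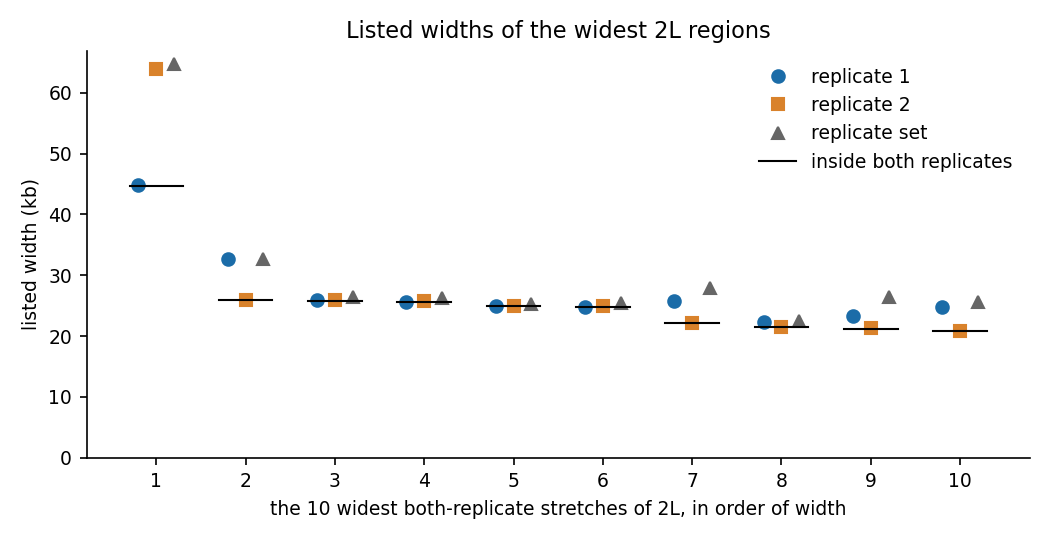
Listed widths (kb) of the regions that hold the 10 widest both-replicate stretches of 2L, in replicate 1 (blue circles), replicate 2 (orange squares) and the replicate set (grey triangles), with a line at the width inside both replicates. The replicates differ most at the first, at 44.8 and 63.9 kb, and by under 1 kb at the third to sixth and the eighth.

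The highest scores did not all belong to the widest regions. By mean score, the first pair lay at 2L:12041065-12049301 in replicate 1, spanned 8.24 kb there and 7.31 kb in replicate 2, and scored 2.42 in both. The second, at 2L:6076184-6095117, was 18.9 and 17.7 kb wide and scored 2.53 and 2.23. The third, at 2L:5965414-5991212, was 25.8 and 22.1 kb wide, scored 2.45 and 2.28, and is the only one of the 5 also among the 10 widest. The fourth, at 2L:2743299-2761085, scored 2.30 and 2.09, and the fifth, at 2L:11801749-11810308, scored 2.10 and 2.22. The fifth is the border of the 273-kb empty stretch. Among the highest-scoring 10% of replicate 1, 13 of 86 regions were under 5 kb wide, and of replicate 2, 15 of 84. As a group they were wide, with median widths of 8706 and 7242.5 bp, beside 3015 and 3041 bp for all regions of 2L. The upper quartile of width over all regions was 5334.5 and 5294.5 bp, so most regions of each list were under or near 5 kb.

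The lowest pairs were narrow and alike in both replicates. The lowest lay at 2L:19180543-19182285, was 1743 bp wide in replicate 1 and 1562 bp in replicate 2, and scored 0.21 and 0.20. The next 4, in order of mean score, lay at 2L:10437182-10438688, 2L:6557508-6558869, 2L:13382279-13383965 and 2L:10801425-10802985 in replicate 1. Their scores ran from 0.24 to 0.30 in replicate 1 and from 0.18 to 0.26 in replicate 2. All 5 were at most 1743 bp wide in each replicate.

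The 2 lists mostly named the same stretches. Of the 859 regions of replicate 1, 761 overlapped a region of replicate 2 (88.6%, 95% Wilson interval 86.3 to 90.5), against 88.7% over all sequences. Of the 836 of replicate 2, 784 overlapped replicate 1 (93.8%, 91.9 to 95.2), against 93.7% over all sequences. The shares on 2L were thus near the background. Shared bases were 84.1% of the bases listed in either replicate on 2L, and between 83.3% (3L) and 85.5% (2R) on the other large arms. Over the 41 windows, the covered share of one replicate followed that of the other with a Spearman rho of 0.99.

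Agreement followed the score. With each list cut into 5 equal groups by score, 102 of 172 regions of replicate 1 (59.3%) and 140 of 168 of replicate 2 (83.3%) in the lowest group overlapped the other replicate. In group 2 the shares were 84.3% and 87.4%, and in group 3 they were 99.4% and 98.2%. In groups 4 and 5 the share was 100% in both replicates. The 98 unshared regions of replicate 1 were narrower and scored lower, with medians of 1718 bp and 0.45, beside 3351 bp and 0.88 for its 761 shared ones. They held 4.20% of its listed bases. The 52 unshared regions of replicate 2 had 1586 bp and 0.48, beside 3206 bp and 0.83, and held 2.52%. The replicate set overlapped every one of these unshared regions, but it overlapped all 859 and all 836 regions of the 2 lists, so this is not particular to them.

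**Figure D3:**
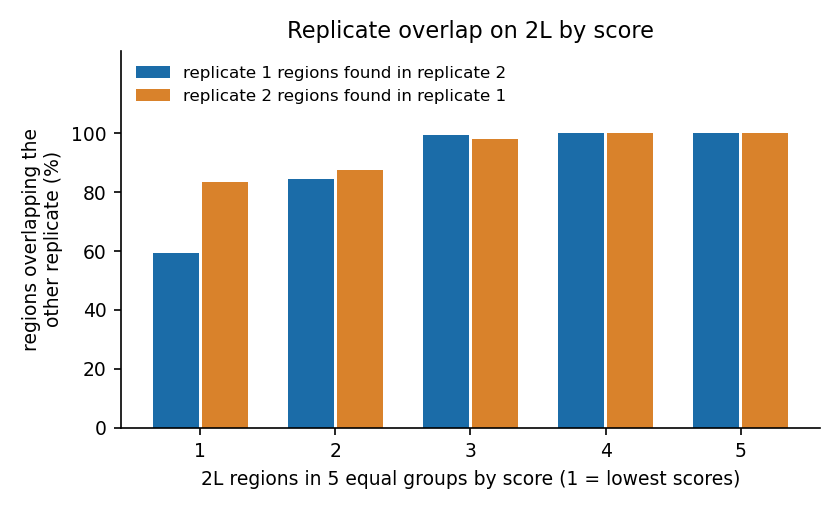
Share of 2L regions (%) that overlap a region of the other replicate, in 5 equal groups by score within each replicate, for replicate 1 (blue) and replicate 2 (orange). The bars climb from 59.3% and 83.3% in the lowest group to 100% in groups 4 and 5.

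The unshared regions included few of any size. The widest of replicate 1 was at 2L:13787385-13790500 (3116 bp, score 0.64), followed by 2L:11219054-11221922 (2869 bp, 0.68). Its highest-scoring one, 0.77, was at 2L:16622207-16624596. The widest and highest-scoring of replicate 2 was at 2L:6997689-7001422 (3734 bp, score 0.83), and its next widest was at 2L:18821527-18824807 (3281 bp, 0.38). The second highest score of replicate 2 among these was 0.73, at 2L:4286105-4288525. None reached the upper quartile of scores of its replicate. In the 6 windows under 10% covered, 44 of 56 regions of replicate 1 were shared (78.6%, Wilson interval 66.2 to 87.3), beside 201 of 215 (93.5%, 89.4 to 96.1) in the 7 windows over 25%. For replicate 2 the shares were 43 of 49 (87.8%, 75.8 to 94.3) and 209 of 215 (97.2%, 94.0 to 98.7). The windows were classed by coverage in the same 2 lists whose overlap is counted, so these shares are a description and test no difference. Scores were also lower in the sparse windows, and the part of score in this was not tested. By section the share stayed between 87.2% and 89.7% in replicate 1 and between 92.1% and 94.4% in replicate 2.

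Where regions overlapped, their values were close. The 761 pairs, each a replicate 1 region and its replicate 2 partner of largest overlap, had a Spearman rho of 0.91 for scores and 0.86 for widths across regions. In 666 pairs neither region touched a further region of the other replicate, and for these rho was 0.93 for both. Scores of replicate 2 lay a median of 0.06 below those of replicate 1 in these 666 pairs, and 541 (81.2%) differed by less than 0.2. Starts differed by a median of 101 bp and ends by 106 bp, and both edges were within 200 bp in 320 pairs. Replicate 1 was the wider in 428 of 666.

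**Figure D4:**
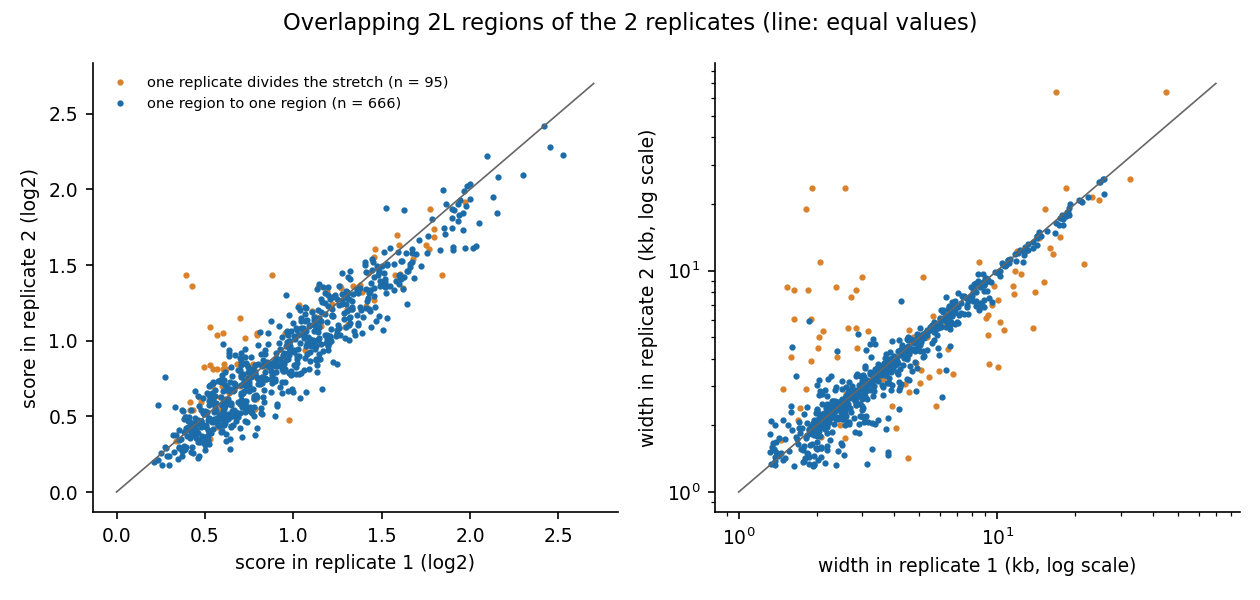
Score (left, log2) and width (right, kb, both axes on a log scale) in replicate 2 against replicate 1 for the 761 pairs of overlapping 2L regions, with the 666 that match one region to one region in blue, the others in orange and a line at equal values. Blue points follow the line, and the points farthest from it are orange.

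The largest differences stood where a replicate divided a stretch. At 2L:16305927-16329429 replicate 2 listed 1 region of 23.5 kb with a score of 1.43. Replicate 1 listed 3 regions there, of 2.59, 18.4 and 1.92 kb with scores of 0.88, 1.58 and 0.39. The small pieces, set beside the whole, gave differences of 0.55 and 1.04 in score. At 2L:5246073-5265055 replicate 2 again listed 1 region, of 19.0 kb and 1.36, where replicate 1 listed 15.2 kb at 1.34 and 1.83 kb at 0.43. At 2L:18977954-18988834 replicate 2 had 10.9 kb at 1.09, and the paired piece of replicate 1 was 2.07 kb at 0.53. The opposite case was 2L:5519363-5529451, which replicate 1 listed as 10.1 kb with 0.98 and where the replicate 2 partner was 3.65 kb with 0.48. In all, 51 regions of replicate 1 touched 2 or more of replicate 2, and 27 of replicate 2 touched 2 or more of replicate 1. The largest difference in width, 47.1 kb, came from the 16.8-kb piece in the widest stretch described above.

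The replicate set added mostly weak regions. Of its 977 regions on 2L, 707 (72.4%) overlapped both replicates, against 71.9% over all sequences. These 707 held 90.3% of the bases of the set. Another 92 touched only replicate 1, and 51 only replicate 2. The other 127 (13.0%) overlapped neither and held 3.82% of the bases, and their medians were 1331 bp and 0.34, set against 4117 bp and 0.80 for the 707. Of the 127, 59 were narrower than 1301 bp, the narrowest region in either replicate list. The widest of them lay at 2L:8284786-8287522 (2737 bp, score 0.37), 2L:5443428-5445924 (2497 bp, 0.19) and 2L:13089716-13092102 (2387 bp, 0.41). A single one scored above 1. It lay at 2L:19345096-19346096, was 1001 bp wide and had a score of 3.07, the highest on 2L in any list, and was chosen after its value was seen. None of the 3 regions that the set names as depleted was on 2L.

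On 2L, region density and covered share were below the mean of the other large arms in each replicate. Low density was already named in the rule that set this part, so the comparison is a description and no independent test. Density was 41.3 ± 0.793 per Mb on 2L and 45.8 ± 0.247 over the mean of 2R, 3L, 3R and X, a difference of -4.12 in replicate 1 and -4.89 in replicate 2. Covered share was 19.1% ± 0.712 on 2L and 22.3% ± 0.956 over the others, a difference of -3.43 and -3.09 percentage points (SD, n = 2). An exact two-sided permutation test over the 2 replicates of each gave p = 0.333 for both measures, the smallest p that this design allows, so the test cannot separate 2L from the others. The arms share their libraries, and a sign-flip test of the 2 differences within libraries gave an exact p of 0.5, again the smallest possible. Covered share on 2L was below that of each other large arm in both replicates. It was 19.6% and 18.6% on 2L, and 3R, the nearest arm by mean, had 22.2% and 20.7%.

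For density the place of 2L beside X depended on the part of X that was counted. On 2L it was 41.9 per Mb in replicate 1 and 40.8 in replicate 2, while the whole of X had 40.7 and 42.3, so the order turned between the replicates (exact permutation p = 1). The difference of -0.16 per Mb was smaller than its SD between replicates, 1.96. With 2.5 Mb removed from the centromeric end of X, as the bound does on 2L, X had 43.0 and 44.7 per Mb, and 2L was lower in both replicates. That difference was -2.50 ± 2.04 per Mb (SD, n = 2), with an exact unpaired permutation p of 0.333. Listed regions were narrower and lower in score on 2L than on X, with a median width of 3028 ± 18.4 bp beside 3569 ± 210.0 bp and a median score of 0.80 ± 0.0004 beside 0.99 ± 0.03. Against 3R, the median score differed by less than its SD between replicates. Regions of at least 10 kb numbered 3.54 ± 0.517 per Mb on 2L, and from 4.01 ± 0.547 (3L) to 5.04 ± 0.757 (X) on the others. Against 3L the difference within a library was -0.498 in replicate 1 and -0.455 in replicate 2, with an SD of 0.0300, and 2L was lower than each other arm in both replicates. The sign-flip test within libraries gave an exact p of 0.5, the smallest possible, against each arm. With replicates unpaired the exact permutation p was 0.667 against 3L and 0.333 against each of the others.

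**Figure D5:**
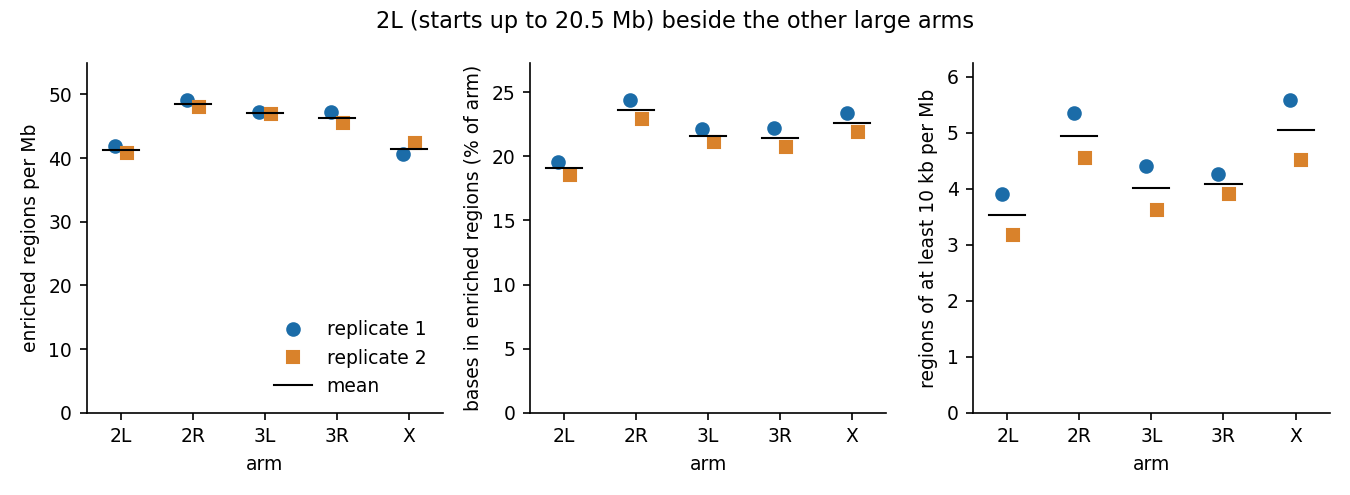
Enriched regions per Mb (left), bases in enriched regions (middle, % of arm) and regions of at least 10 kb per Mb (right) on 2L and on 2R, 3L, 3R and X, with each replicate as a point and their mean as a line. In covered share both 2L points, 19.6% and 18.6%, lie below the points of the same replicate on every other arm, while in density 2L and the whole of X overlap.

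The space in long empty stretches differed among the arms. Stretches of at least 100 kb without a region of either replicate took 28.8% of 2L, 15.1% of 2R, 20.3% of 3L, 23.8% of 3R and 31.2% of X. Their number was 1.80 per Mb on 2L, 1.04 on 2R, 1.22 on 3L, 1.61 on 3R and 1.87 on X. With 2.5 Mb removed from the end of the other arms nearer the centromere, as the bound does on 2L, the share was between 13.1% (2R) and 26.5% (X) on those arms. The longest stretch was 448 kb on 2L, 257 kb on 2R, 350 kb on 3L, 273 kb on 3R and 364 kb on X. In replicate 2 alone, the longest were 523 kb on 2L and 506 kb on 3L.

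Outside empty stretches of at least 50 kb, the mean density and mean covered share of 2L lay within the range of the other arms. Both means were above 2R alone. Over the remaining 11.01 Mb the density of 2L was 77.0 ± 1.48 per Mb, within the range of 71.5 ± 1.08 (2R) to 78.9 ± 0.338 (3L) on the other arms (SD, n = 2). Against X the order turned between the replicates. Density was 78.0 per Mb on 2L and 76.5 on X in replicate 1, and 75.9 and 79.6 in replicate 2. The covered share of 2L there was 35.5% ± 1.33, beside 34.8% ± 1.48 on 2R, 35.8% ± 1.74 on 3R, 36.2% ± 1.23 on 3L and 42.5% ± 1.97 on X. The stretches were removed because no region was listed in them, so these values describe the lists and test no difference. Over 500-kb windows, the middle 50% of covered shares in replicate 1 ran from 14.7% to 23.8% on 2L, 19.0% to 31.3% on 2R, 13.9% to 29.1% on 3L, 14.8% to 26.9% on 3R and 16.4% to 30.3% on X. In these windows the upper end was lowest on 2L, and in replicate 2 it was also lowest there, at 22.6%. The lower end on 2L lay above that of 3L and near that of 3R in replicate 1 only. In replicate 2 the lower end was 13.3% on 2L, the lowest of the large arms, beside 13.9% on 3L and 14.2% on 3R. The Spearman rho of covered share with position was -0.42 and -0.39 on 2L in the 2 replicates, -0.25 and -0.23 on 3L, -0.30 and -0.32 on X, -0.13 and -0.14 on 3R, and 0.12 and 0.13 on 2R. The maps of 2R and 3R run away from the centromere, opposite to those of 2L, 3L and X. All values in this paragraph use the full sequence of 2R, 3L, 3R and X, while 2L stops at the bound, short of its centromeric end. Like parts of the arms are thus not compared, and the effect of cutting the other arms on these values was not tested.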

How the data were processed

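The 3 deposited lists give regions with a start, an end and 1 score, on FlyBase release 5 per the file headers. The submitters' processing notes list Bowtie 0.12.7 and give it no role. Not given in the sources used here: the region caller, its threshold, how the input entered and how the replicate set was made. The deposited scores were taken as log2 values. No source states the base, which was inferred: with base 2, between 34.6% and 52.9% of the scores of a list lie a log of a whole-number ratio away from its most common score (denominator up to 400, numerator up to 1600, relative tolerance 1e-09), and with base e or 10 at most 0.479% do.

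The tools were scipy 1.17.1, pandas 2.3.3 and numpy 2.4.6 under Python 3.11.15, and interval counts were tested on simulated data. Overlap means at least 1 bp shared. Covered shares are cut off at 20.5 Mb on 2L and use the full sequence of the other arms. Wilson intervals cover counting error only. The exact permutation test compares the 2 replicate values of 2L with those of the other arms, and a sign-flip test compares them within libraries. Regions were named by rank of width, score, score difference, width difference, coverage or gap length, and members and rules were chosen with earlier results of these data known. The gene table at hand is on release 6, so no genes or sequences are given.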

Additional observations from a re-analysis of the deposited data

How the results depend on the processing

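The paired analysis, chosen after seeing the data, took 2L and the other arms of the same library as a replicate block. It leaves the mean differences at -4.51 regions per Mb and -3.26 percentage points by construction, with an exact p of 0.5 for each, the smallest that 2 pairs allow. ChIP and input were not paired, since only ChIP regions were analysed. With 2 replicates, leaving one out cannot move density or coverage past its SD, and hardly the position trend, so these 6 values are no check. Of the 42 other alternatives, 24 left the value within the spread between replicates, the counting interval, a set tolerance of 0.005 for the rho of scores, 1.5 times the count or, for the differences from the other arms, in the same direction. With either replicate left out, the difference from the other arms ran from -4.89 to -4.12 regions per Mb and from -3.43 to -3.09 percentage points. Over the other settings it ran from -6.17 to -3.79 and from -4.36 to -3.14. Reciprocal overlap of 50% lowered the shared part to 84.1% of replicate 1 and 86.4% of replicate 2, and raised the rho of scores to 0.93. Among the higher-scoring 50% of each list, that rho was 0.86, density 19.5 per Mb, coverage 13.6% and the number of empty stretches of at least 100 kb 59, each from fewer regions by construction. The replicate set gave 47.7 regions per Mb and 22.4% coverage. The position trend was -0.33 with windows of 250 kb, -0.51 with 1 Mb and -0.35 for regions per window. Chosen after seeing the data, leaving out 1 window gave -0.36 (without the first) to -0.48, and the first 20 and last 21 windows alone gave 0.15 and -0.16. The causes of these changes were not tested. A minimum of 50 kb gave 87 empty stretches, and a minimum of 20 kb gave 13 wide stretches. Without read counts, weak regions cannot be weighed by depth.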

Other observations

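Past the bound, the remaining 2.51 Mb of the 2L sequence held 85 regions in replicate 1 and 80 in replicate 2. Regions covered 14.3% and 13.7% of it, close to the 14.4% and 13.9% of the last of 4 equal sections before the bound. Their median scores were 0.87 and 0.91, above the 0.73 of that section in each replicate. The last region of the sequence lay at 2L:22959871-22963083 in replicate 1 and scored 1.06 there and 1.02 in replicate 2.

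Regions with at least 50 kb free on both sides in their own replicate numbered 14 in replicate 1 and 13 in replicate 2. Of these, 9 (64.3%) and 11 (84.6%) overlapped a region of the other replicate, beside 88.6% and 93.8% of all regions on 2L. The numbers are small, and the part of score in this was not tested. Their median scores were 0.55 and 0.53, and their median widths 1959 and 2419 bp.

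The highest-scoring 10% of regions of replicate 1 were spread over the 4 sections as 28, 27, 13 and 18, from the telomeric end inward. Those of replicate 2 numbered 29, 25, 11 and 19. The sections held 255, 233, 195 and 176 regions in all in replicate 1, and 251, 231, 189 and 165 in replicate 2. Relative to these totals, section 3 had the fewest in each replicate, and section 4 was near sections 1 and 2.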
